A study of Mus musculus with 10 samples.

Results

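A total of 1090 genomic regions carried an estrogen receptor alpha (ERα) peak in the arcuate nucleus of the mouse hypothalamus and none in the anteroventral periventricular (AVPV) nucleus. They are called arcuate-only regions here, and they were selected on the peak calls themselves. Peaks of 8 ERα ChIP-seq libraries, 4 from each nucleus, were merged wherever they shared at least 1 bp, which gave 8072 regions from 25982 peaks. A region was kept when at least 2 arcuate libraries and 0 AVPV libraries had a peak in it. The arcuate-only regions were 13.5% of all regions, and this share describes the selection. The mirror selection, at least 2 AVPV libraries and 0 arcuate libraries, held 419 regions, or 5.19% of all. At least 2 libraries of each nucleus had a peak in 2140 regions.

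Chromatin came from arcuate and AVPV tissue of female C57BL/6 mice. Ovaries had been removed in both groups and 17β-estradiol was supplied from a subcutaneous 2 cm Silastic implant (0.1 mg/mL in sesame oil). On top of this, both groups had a single dose of estradiol benzoate (0.05 mg/kg) 28 h before dissection. Every library was made from pooled chromatin with the ERα antibody sc-543. Both nuclei therefore had the same hormone treatment, and no library of vehicle-treated animals was among the peak lists. The sources used here do not state if different animals went into the 4 libraries of each nucleus, so the spread between libraries may be technical. The tissue was dissected whole, and cell types within it were not separated, so fewer cells with ERα and less binding per cell cannot be told apart. Of peak lists alone, the tissue labels could not be checked against the expression of marker genes.

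ERα is a nuclear receptor that, once bound to estradiol, attaches to DNA as a dimer. Its typical site is the estrogen response element, a palindrome of the half-sites AGGTCA and TGACCT with 3 bases between. The receptor also reaches chromatin through other DNA-bound factors. In the arcuate nucleus, kisspeptin neurons that also make neurokinin B and dynorphin take part in estrogen negative feedback on gonadotropin secretion, whereas AVPV kisspeptin neurons take part in positive feedback. The arcuate nucleus also holds the POMC and AgRP neurons of appetite control.

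The response elements printed here lay within 100 bp of the summit of arcuate-only regions, and they show how far such sites depart from the palindrome. The first, near Tcf12, matched all 12 fixed bases. The next 3 sites lay near genes of the arcuate kisspeptin system, the fifth in Greb1, a classic estrogen target, and the last in an intergenic stretch 519 kb upstream of the developmental factor Tbx3. Each is the plus strand of mm10 (GRCm38) from the RefSeq assembly, with the element in capitals and 20 bases on either side. Substitutions count from 1 at the first base of the element, with the consensus base first.
Tcf12 intron, chr9:72008728-72008782: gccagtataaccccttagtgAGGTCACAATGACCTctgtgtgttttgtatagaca
Kiss1 and Golt1a, chr1:133323471-133323525, T4C: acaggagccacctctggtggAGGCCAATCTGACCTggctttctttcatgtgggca
Tac2, in an intron of Myo1a, chr10:127720314-127720368, A1T and T15G: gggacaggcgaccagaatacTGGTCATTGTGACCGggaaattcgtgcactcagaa
between Pdyn and Stk35, chr2:129782077-129782131, A12T and C13T: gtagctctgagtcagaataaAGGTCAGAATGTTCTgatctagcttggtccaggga
Greb1 intron, chr12:16790589-16790643, A12C and T15C: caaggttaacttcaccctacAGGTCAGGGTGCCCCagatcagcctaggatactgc
upstream of Tbx3, chr5:119152147-119152201, T4C and T15C: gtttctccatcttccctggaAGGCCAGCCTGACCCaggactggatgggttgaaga

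Most arcuate-only regions were called in 2 or 3 arcuate libraries. A peak was called in 2 arcuate libraries at 556 regions, in 3 at 362 and in all 4 at 172. Libraries 1 and 2 together, without the others, accounted for 250 regions, and libraries 1, 2 and 3 for 242. Just outside the selection lay 2278 regions with a peak in a single arcuate library and none in AVPV. Another 429 regions had peaks in at least 2 arcuate libraries and in 1 AVPV library.

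The arcuate libraries contributed unequally. Peaks fell in 880 arcuate-only regions in library 1 (80.7%), 892 in library 2 (81.8%), 686 in library 3 (62.9%) and 428 in library 4 (39.3%). Arcuate library 4 was not the shortest list: it held 3468 peaks, against 4079, 3869 and 3251 in libraries 1 to 3, yet 871 of its regions occurred in no other library. The AVPV lists were shorter, with 2367 to 3347 peaks. The peak lists hold no read numbers, so the depth of the libraries was not assessed. When each list was cut to its 2367 peaks of lowest p-value, 592 regions were arcuate-only and 533 were AVPV-only, so the excess of arcuate-only over AVPV-only regions moved with the length of the lists.

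**Figure D1:**
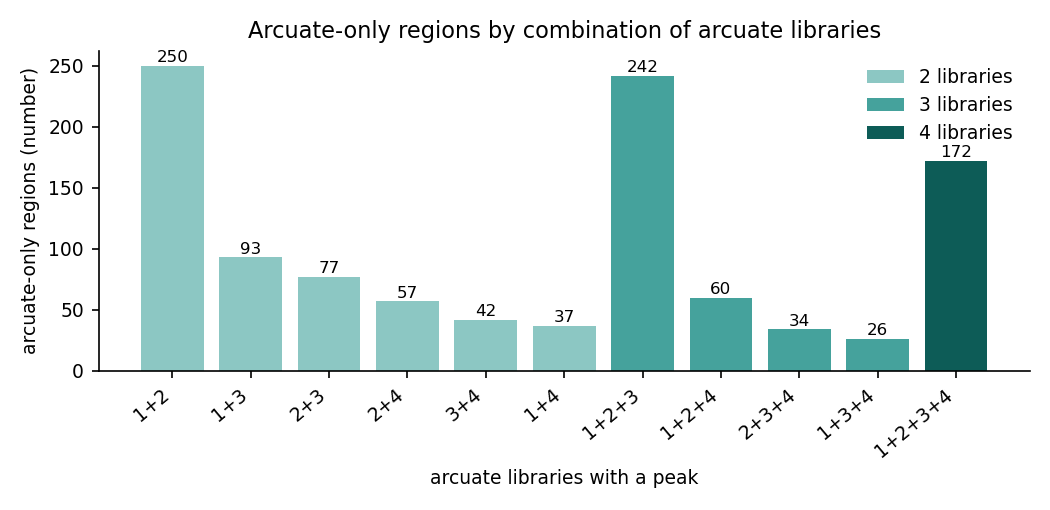
Number of arcuate-only regions (y axis) for each combination of arcuate libraries with a peak (x axis), coloured by the number of libraries. Libraries 1 and 2 form the largest pair with 250 regions, and 172 regions had a peak in all 4 libraries.

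Whether the selection carried over to libraries it had not used was examined by leaving out 1 arcuate and 1 AVPV library at a time and selecting again with the other 3 and 3. Across the 16 pairs, 733 to 1101 regions were selected. A median of 61.2% of them had a peak in the left-out arcuate library (range 30.9% to 73.6%), and 8.33% had one in the left-out AVPV library (range 3.24% to 17.9%). The arcuate share was above the AVPV share in 16 of 16 pairs. For comparison, every region of the 6 lists had a peak in the left-out library in 42.2% of cases for arcuate and 34.7% for AVPV. That set also holds regions called in a single library. The selected regions had peaks in at least 2 of 3 arcuate and 0 of 3 AVPV libraries, so the sets are unlike in their call counts. The pairs share libraries, so no p-value is given.

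Recovery depended on the library left out. Medians were 70.4% and 71.8% for arcuate libraries 1 and 2, 54.6% for library 3 and 31.8% for library 4. For library 4, that is below the 36.8% it showed over every region of the 6 lists. Of the AVPV libraries, 3 and 4 had a peak in 15.6% and 14.2% of the regions selected without them, against 3.46% and 3.87% for libraries 1 and 2. The former are the longer AVPV lists. With lists cut to equal length, the medians were 65.0% in arcuate and 7.52% in AVPV, again with arcuate higher in 16 of 16 pairs. The mirror selection was recovered in 49.8% of cases in the left-out AVPV library and in 12.7% in the left-out arcuate library, where library 1 reached 29.6%.

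**Figure D2:**
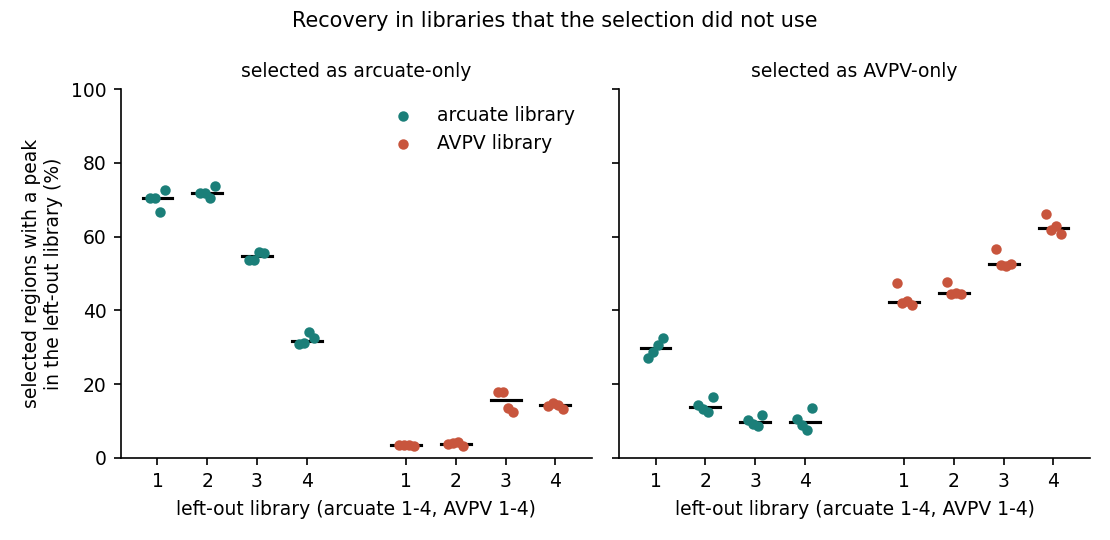
Share of selected regions (y axis, %) with a peak in a library that took no part in the selection (x axis), for regions selected as arcuate-only (left) and AVPV-only (right); points are the 4 pairs that leave out a library and black lines their medians. Left-out arcuate libraries recovered 30.9% to 73.6% of arcuate-only regions and left-out AVPV libraries 3.24% to 17.9%.

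Peaks at arcuate-only regions were of middling strength within their own libraries. Strength is given as the deposited fold enrichment of a peak over its local background and as its percentile within the list. The median fold at arcuate-only regions was 5.90, 5.48, 5.79 and 5.77 in arcuate libraries 1 to 4. Those peaks had median percentiles of 45.3, 41.9, 41.2 and 48, and the other peaks of the same lists 52.3, 54.2, 53.6 and 51.2. Few reached the top of a list: 84, 73, 46 and 37 peaks lay in the strongest 25% of libraries 1 to 4, and 8, 5, 6 and 0 in the strongest 10%. Peak strength bears on whether a peak is called, so these values describe the selection.

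Regions shared by more arcuate libraries were stronger and wider. The median percentile was 33.6 for regions in 2 libraries, 45 in 3 and 58.2 in 4, while regions of a single arcuate library had 21.2. Median width was 288.5, 320.5 and 382.5 bp for 2, 3 and 4 libraries. A merged region spans all of its peaks, so each added library can only widen it, and the widths in part describe the merging. Summits of the same region had a median spread of 53 bp between libraries, with 520 regions (47.7%) within 50 bp and 206 (18.9%) spread over more than 100 bp. The summit fell in a soft-masked repeat in 10.4%, 10.5% and 5.23% of regions in 2, 3 and 4 libraries, and in 5.05% of regions called in both nuclei. The difference between 4 and 2 libraries was -5.2 points (95% interval -8.94 to -0.235, counting error only). The nearest region with an AVPV peak lay a median of 124 kb away, against 108 kb over all 8072 regions, and it lay within 10 kb at 90 arcuate-only regions (8.26%) and at 12.4% of all regions.

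The 10 strongest arcuate-only regions in all 4 libraries lay 5.86 to 252 kb from the nearest start site. They are ordered here by their lowest percentile over the 4 libraries, and each is named for the nearest protein-coding gene by start site. The first, at chr13:42657014-42657481, lay in an intergenic stretch 23.6 kb upstream of Phactr1, a phosphatase and actin regulator. Its fold enrichment was 17.2, 18.3, 12 and 10.8 in arcuate libraries 1 to 4, and no response element lay within 100 bp of its summit. The second, chr5:118812886-118813481, stood 252 kb past the start of Med13l, a subunit of the Mediator complex, at 10.8, 11.8, 13.0 and 10.5. Gatb, a subunit of a mitochondrial aminoacyl-tRNA amidotransferase, was 205 kb from the third region, with 15.1, 17.8, 13.0 and 9.74. All 4 libraries placed these regions among their stronger peaks, with no percentile under 83.9.

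Of the next 7 regions, 3 were intergenic, 2 exonic and 2 intronic. The intergenic ones were nearest to Slc15a4, a lysosomal transporter of histidine and peptides (9.24, 8.88, 13.0 and 10.5), Pcbd1, which recycles the tetrahydrobiopterin cofactor (8.23, 10.2, 9.89 and 7.56), and Ddit4l, an inhibitor of mTOR signalling (9.49, 12.6, 10.5 and 7.21). Exons held the regions of Adh7, an alcohol dehydrogenase that oxidises retinol (13.3, 8.61, 13.0 and 8.66), and Tktl2, a transketolase relative (15.4, 11.6, 8.47 and 7.21). Introns held those of Grk3, a kinase of G protein-coupled receptors (8.98, 9.95, 13.4 and 7.21), and Tcf12, an E protein of the helix-loop-helix family (10.01, 8.07, 9.77 and 7.21). In library 4 the last 4 of these ranks were tied at 7.21. Across the 10 regions, library 4 gave the lowest fold at 8, all but Slc15a4 and Adh7.

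**Figure D3:**
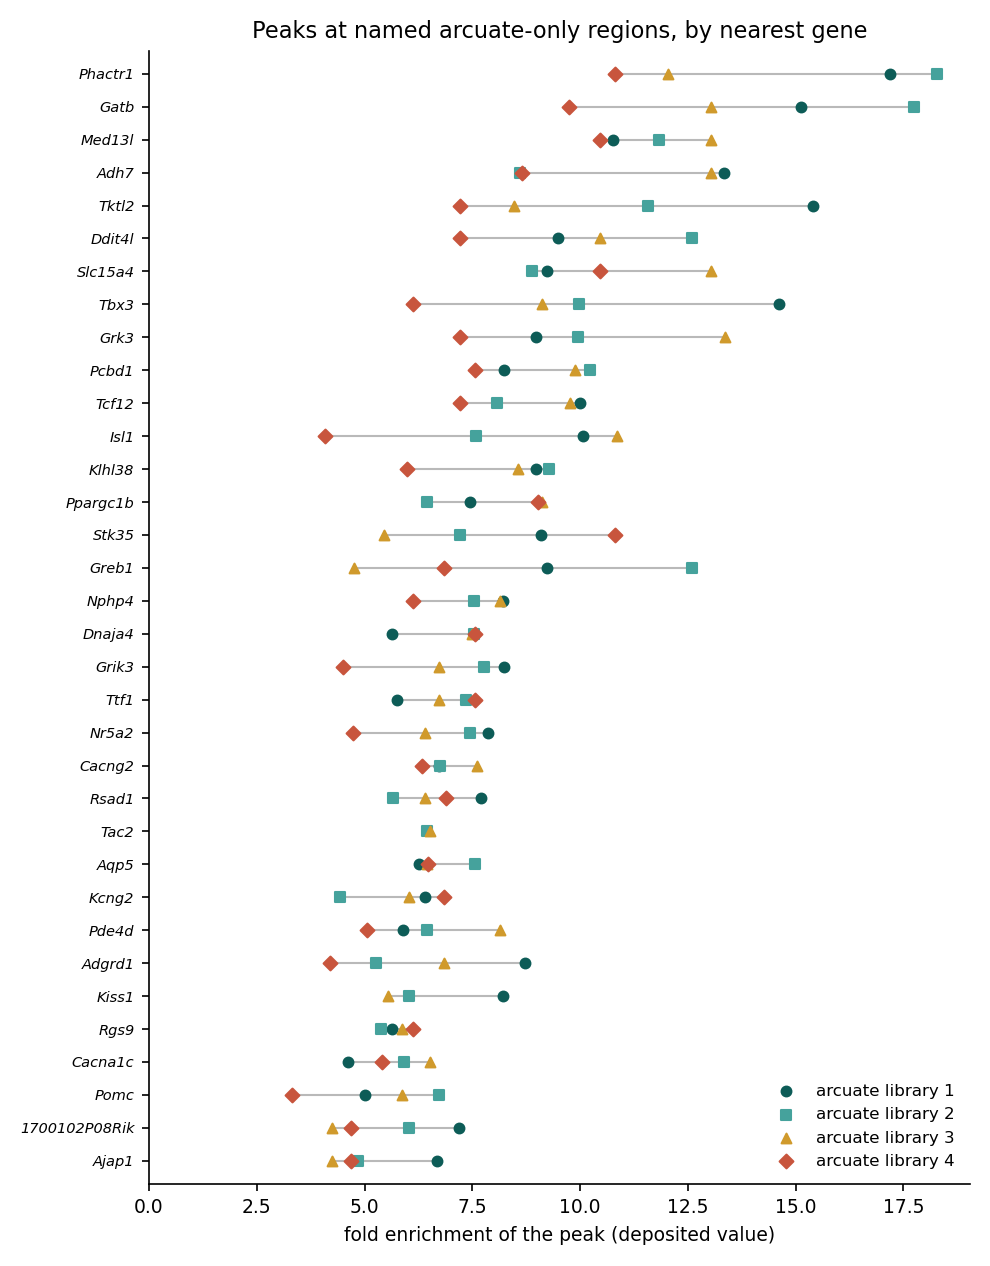
Deposited fold enrichment (x axis) in each arcuate library for the named arcuate-only regions (rows, labelled by nearest gene and ordered by median fold); grey lines join the lowest and highest library. Phactr1 spans 10.8 to 18.3, whereas the Kiss1 and Tac2 rows have 3 and 2 points because the other libraries had no peak there.

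Most arcuate-only regions lay in introns or between genes. By the position of the summit, 456 (41.8%) were intronic, 437 (40.1%) intergenic, 119 (10.9%) at promoters, 70 (6.42%) in exons and 8 (0.734%) at transcription ends. A summit counted as promoter when it lay no more than 1 kb before or 100 bp after a start site. The promoter share was 13.3% for regions in 2 arcuate libraries, 9.12% in 3 and 6.98% in 4. Among AVPV-only regions it was 16%, and the arcuate-only share minus this one was -5.07 percentage points (95% interval -9.26 to -1.31). Of the regions called in both nuclei, 41.0% were at promoters, and the corresponding difference was -30.1 points (interval -32.8 to -27.2). Intervals here are Wilson intervals for shares and Newcombe intervals for differences, and they cover counting error only, since regions are not replicates.

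The nearest start site was a median of 38.3 kb away, and 481 regions (44.1%) lay beyond 50 kb. The corresponding share was 50.8% among AVPV-only regions and 29.1% among those called in both nuclei. At the other end, 5 promoter regions led those with peaks in all 4 arcuate libraries. They belonged to Klhl38, a kelch-family protein; Aqp5, a water channel; Rsad1, a radical SAM protein; Ttf1, the RNA polymerase I termination factor; and Dnaja4, a heat-shock co-chaperone. Their folds ran from 5.64, at Dnaja4 in library 1, to 9.28, at Klhl38 in library 2. Only the Klhl38 region among them had a response element.

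An estrogen response element was present at 443 arcuate-only regions, 40.6% (95% interval 37.8% to 43.6%). A match was allowed up to 2 mismatches in the 12 fixed bases within 100 bp of the summit, on both strands. In windows of the same size moved by 5 kb, the share was 2.2%. The element was found more often where more arcuate libraries had the peak, at 37.1%, 42.0% and 49.4% of regions in 2, 3 and 4 libraries. Regions of 4 libraries exceeded those of 2 by 12.4 points (95% interval 3.93 to 20.7). Element and summit lay close, at a median of 25 bp.

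Compared with other groups, the share was 7.23 points above that of AVPV-only regions (33.4%; interval 1.76 to 12.5) and 6.06 points above that of regions called in both nuclei (34.6%; interval 2.53 to 9.61). The second difference turned round outside promoters. There the element occurred at 45% of arcuate-only regions, 39.5% of AVPV-only regions and 55.8% of regions called in both, so that arcuate-only regions were 10.8 points below the latter (interval -14.9 to -6.64). For arcuate-only regions of all 4 libraries this difference was -3.32 points, and its interval of -11.5 to 4.75 spans 0. The difference from AVPV-only regions outside promoters was 5.52 points, with an interval of -0.534 to 11.4 that spans 0. At promoters, 6 of 119 arcuate-only regions (5.04%) had an element. AVPV library 3 affected the first comparison: without it, arcuate-only exceeded AVPV-only regions by 2.35 points (interval -4.0 to 8.36). Without arcuate library 4 the difference was 12.3 points (interval 6.91 to 17.4). The interval also spanned 0 for arcuate-only regions of all 4 libraries (3.96 points, -10.1 to 17.6) and for elements of at most 1 mismatch (1.39 points, -2.63 to 4.98).

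Within an arcuate list, peaks at arcuate-only regions were compared with the other peaks of the same bin. Each list was split into 4 equal bins of fold enrichment, which held strength only roughly alike. In the strongest bin, 8 of 84, 5 of 73, 6 of 46 and 0 of 37 arcuate-only peaks of libraries 1 to 4 lay in the strongest 10% of their list. Over the 16 combinations of library and bin, the element was more frequent at arcuate-only peaks in 15, and the interval lay above 0 in 11. Outside promoters the difference was positive in 7 of 8 combinations in the 2 weaker bins and negative in 7 of 8 in the 2 stronger ones, and over the 16 it ranged from -15.8 to 22.7 points. Most of these intervals spanned 0: 3 of 8 in the weaker bins lay above 0, all in libraries 3 and 4, and 3 of 8 in the stronger bins lay below it.

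The elements of arcuate-only regions were mostly imperfect. A perfect palindrome was found at 17 regions (1.56%), against 4.49% of regions called in both nuclei. The share was also low at AVPV-only regions (0.955%) and at regions of 1 arcuate library and no AVPV library (1.27%). Among arcuate-only regions, the other elements had mismatches. There was 1 mismatch at 136 regions and 2 at 290. The outer bases varied most: positions 1 and 15 carried the consensus base in 74.3% and 75.8% of elements, and positions 4 and 12 in 79% each. Position 13 was the most regular, with C in 95%. The sequence AGGGCAGGCTGACCT recurred at 4 regions, the Rgs9 region among them.

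Among the 10 other motifs searched, the hexamer CAAGTG had the largest difference in share from AVPV-only regions. This is the core bound by homeodomain factors of the NK2 class, to which NKX2-1, a factor of the developing tuberal hypothalamus, belongs, and it also has the letters of an E-box (CANNTG). On either strand within 100 bp of the summit it occurred at 195 arcuate-only regions (17.9%), 9.79% of AVPV-only regions and 10.4% of regions called in both. The differences were 8.10 points (interval 4.23 to 11.6) and 7.47 points (interval 4.91 to 10.2). Windows moved by 5 kb had 13.9% for arcuate-only regions, 11.9% for AVPV-only regions and 13.7% for regions called in both, and all 8072 regions had 12.1%. Arcuate-only regions thus exceeded their own moved windows by 4.04 points, with an interval above 0. The shares of AVPV-only regions and of regions called in both lay below those of their moved windows. Regions with peaks in at least 2 arcuate libraries and 1 AVPV library had 14.7%, against 11.7% in their moved windows. Outside promoters the shares were 18.9%, 8.24% and 13.8%, and 17.4% for regions of at least 2 arcuate libraries and 1 AVPV library. Regions called in both were close to their moved windows there, which had 13.5%.

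A longer form, TCAAGTG, was counted after the shares of the hexamer had been seen. It occurred at 92 arcuate-only regions (8.44%, interval 6.93% to 10.2%), 3.10% of AVPV-only regions and 3.93% of regions called in both. Regions of at least 2 arcuate libraries and 1 AVPV library had it at 6.99%, and at 8.71% outside promoters. Outside promoters, arcuate-only regions had 9.17% and regions called in both 5.46%. In the moved windows of arcuate-only regions it occurred at 3.76%, and among all regions at 4.65%. The share was 6.29%, 10.2% and 11.6% at regions in 2, 3 and 4 arcuate libraries, a difference of 5.33 points between 4 and 2 (interval 0.725 to 11.2). Of these motifs, 64 of 92 were centred within 50 bp of the summit. Regions with a response element had it at 7.67% and those without at 8.96%, a difference of -1.29 points (interval -4.54 to 2.18). The median GC content of the summit window was 50.7% in arcuate-only and 44.3% in AVPV-only regions. Its part in these differences was not tested.

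Printed here are 4 strong regions in all arcuate libraries that held TCAAGTG, on the strand that reads TCAAGTG, with the motif in capitals. Not every chromosome was eligible for this choice, so a stronger region may have been left out. The printed regions include the Phactr1 region, which had no response element. The other 3 had one.
Phactr1, chr13:42657219-42657265, plus strand: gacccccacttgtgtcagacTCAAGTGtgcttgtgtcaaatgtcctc
Slc15a4, chr5:127585233-127585279, minus strand: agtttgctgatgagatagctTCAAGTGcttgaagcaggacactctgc
Pcbd1, chr10:61020069-61020115, minus strand: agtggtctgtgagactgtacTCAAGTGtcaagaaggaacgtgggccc
Matn1, chr4:131246233-131246279, minus strand: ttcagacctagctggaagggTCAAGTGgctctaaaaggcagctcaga

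Regions called in 1 library only, which the selection had not used, gave an uneven picture. TCAAGTG occurred at 8.21% of the 597 regions of arcuate library 1 alone, 6.17% of the 535 of library 2, 3.64% of the 275 of library 3 and 1.03% of the 871 of library 4. The corresponding shares in AVPV libraries 1 to 4 were 5.13%, 1.92%, 2.22% and 3.62%. Arcuate libraries 1 and 2 were thus above all AVPV libraries, library 3 lay within their range and library 4 below it.

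**Figure D4:**
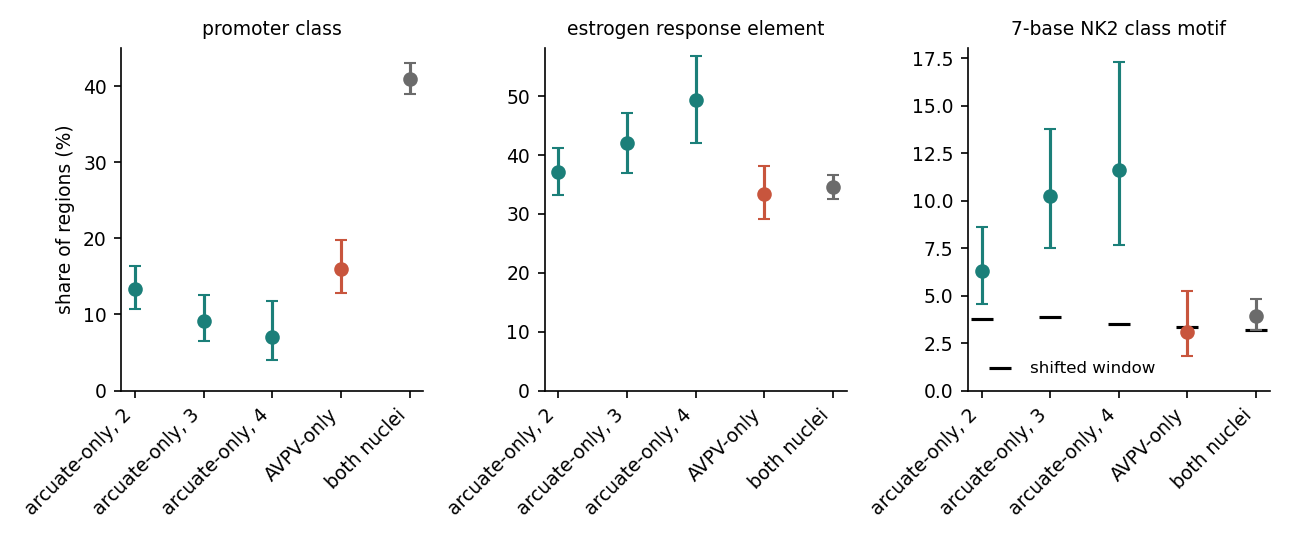
Share of regions (y axes, %) at promoters (left), with an estrogen response element (middle) and with TCAAGTG, the longer NK2 class motif (right), for arcuate-only regions in 2, 3 and 4 libraries, AVPV-only regions and regions called in both nuclei. Bars are 95% Wilson intervals. Black dashes, drawn in the right panel only, are the windows moved by 5 kb. From 2 to 4 arcuate libraries, the promoter share goes from 13.3% to 6.98%, the response element from 37.1% to 49.4% and TCAAGTG from 6.29% to 11.6%.

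The remaining motifs differed less from AVPV-only regions. TAATTA, a homeodomain core, occurred at 3.58% of arcuate-only and 5.97% of AVPV-only regions (difference -2.39 points, interval -5.24 to -0.106), and at 6.33% of the moved windows of arcuate-only regions. The palindrome of androgen, progesterone and glucocorticoid receptors, AGAACA and TGTTCT with 3 bases between and up to 2 mismatches, was at 3.39%, against 1.19% of moved windows and 4.77% of AVPV-only regions. AP-1 sites (TGANTCA) were at 7.71% and in moved windows at 7.06%. The promoter motifs GGGCGG (SP) and CCGGAAG (ETS) were at 10.9% and 4.31% of arcuate-only regions, against 22.6% and 19% of regions called in both. The extended half-site TCAAGGTCA was at 1.10%, the forkhead motif TGTTTAC at 2.29% and the cyclic AMP element TGACGTCA at 0.183%. The nuclear factor I palindrome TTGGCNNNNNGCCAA was at 0 of 1090, which allows a share of up to 0.351% by the Wilson interval.

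All autosomes held arcuate-only regions. They made up 10.3% of the regions of chromosome 19 and 17.3% of those of chromosome 12, with an interval of 13.9% to 21.2% that lies above the 13.5% over all regions. Chromosome 12 had the highest share of all chromosomes. Its interval was thus picked after the values were seen and is not adjusted for the number of chromosomes. Per length, chromosome 12 had 59.9 regions per 100 Mb, chromosome 9 had 57 and chromosome 11 had 55.7. The X chromosome had 13 regions, 7.60 per 100 Mb, and Y none. Regions of any kind were sparse on X, where arcuate-only regions made up 10.7% of 121.

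The nearest protein-coding genes numbered 948 of 21000, or 4.51% of genes. AVPV-only regions had 390 such genes, 1.86%. A single arcuate-only region was nearest to 827 of the genes, 2 regions to 103 and at least 3 to 18. Of the 948 genes, 204 were also nearest to a region called in both nuclei and 51 to an AVPV-only region, while 611 had no region with an AVPV peak nearest to them. For the counts of 204 and 611, the shares over all protein-coding genes are not given here. These counts therefore do not mark the genes as particular to the arcuate nucleus. The 948 genes were long, with a median span of 47.3 kb against 17.7 kb over all genes. AVPV-only regions also lay at long genes, with 42.8 kb.

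A few genes were nearest to several regions, and whether they are more than a random spread would give was not tested. Adgrd1, an adhesion G protein-coupled receptor, Ajap1, a protein of adherens junctions, and Nphp4, a protein of the primary cilium, were each nearest to 4 arcuate-only regions and to 0 AVPV-only regions. Nphp4 was also nearest to 2 regions called in both nuclei, and the others to 0. The Adgrd1 regions lay 87.9 to 185.6 kb from its start, and 1 of the 4 had peaks in all arcuate libraries (8.72, 5.27, 6.84 and 4.20). At Nphp4 all 4 regions were intergenic, 110 to 471 kb past the start. The Nphp4 region of all 4 libraries had folds of 8.21, 7.53, 8.14 and 6.13, but it stood farthest, at 471 kb. The Nphp4 and Ajap1 regions lay on chromosome 4 between positions 152587910 and 153685349. Only the nearest start site assigned them to different genes. Another 15 genes had 3 regions, of which 1700102P08Rik and Csmd1, a large complement-control protein of neurons, are named by alphabet alone.

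Genes of 14 lists on arcuate and neuronal biology were then read against the background of all genes. Of 501 list genes, 77 (15.4%) were nearest to an arcuate-only region and 30 (5.99%) to an AVPV-only region, against 4.51% and 1.86% of all protein-coding genes. Long genes were more often nearest in either case. Among genes with a span over 200 kb, 23.0% of list genes and 15.3% of all genes were nearest to an arcuate-only region; under 50 kb, the values were 9.42% and 3.01%. With the distance limited to 50 kb, 5.19% of list genes and 2.71% of all genes qualified, but among genes with a span over 200 kb the order turned round, with 3.38% of list genes and 4.88% of all such genes. No peak was tied to the expression of these genes here.

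**Figure D5:**
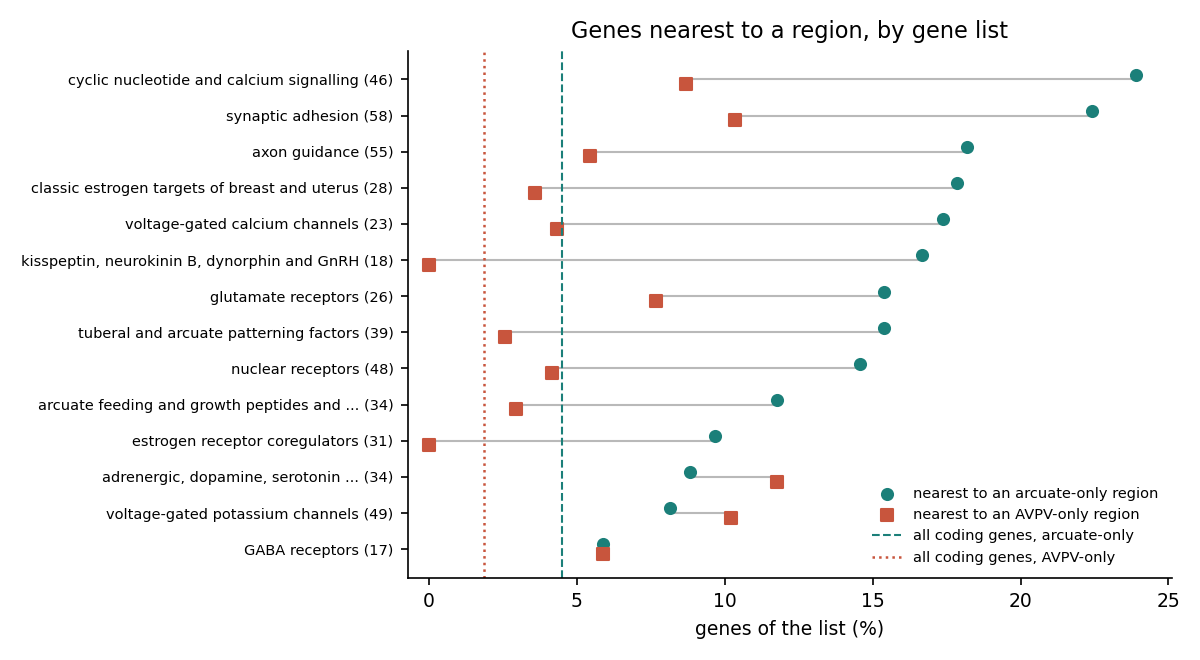
Share of each gene list (x axis, %) nearest to an arcuate-only region (circles) or an AVPV-only region (squares), with the number of genes in brackets and the shares of all protein-coding genes as vertical lines at 4.51% (dashed) and 1.86% (dotted). Circles lie to the right of squares in 11 of 14 lists, coincide for GABA receptors, and lie to the left for potassium channels and for the amine and acetylcholine receptors.

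In the list of kisspeptin, neurokinin B, dynorphin and gonadotropin-releasing hormone genes, 3 of 18 were nearest to an arcuate-only region and 0 to an AVPV-only region. Kiss1 encodes kisspeptin, the neuropeptide that drives gonadotropin-releasing hormone neurons. Its region, chr1:133323173-133323592, had folds of 8.21, 6.04 and 5.54 in arcuate libraries 1 to 3 and no peak in library 4. It lay 3.76 kb upstream of the nearest Kiss1 start site among curated transcripts and just past the end of Golt1a, inside the full RefSeq span of Kiss1. The element printed above lay 44 bp from its summit.

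Tac2 encodes neurokinin B. Its region, chr10:127720164-127720453, was 4.15 kb upstream of Tac2 in an intron of Myo1a, with 6.46 in library 2, 6.51 in library 3 and no peak in libraries 1 and 4. An intron of Oprm1, the mu opioid receptor, held a region with 9.24, 5.08 and 6.49 in libraries 1, 3 and 4, and with a perfect response element. The dynorphin gene Pdyn had no nearest arcuate-only region, but a region of all 4 libraries lay between it and Stk35, at chr2:129781906-129782324. Its folds were 9.10, 7.22, 5.45 and 10.8, the nearest start was that of Stk35 at 18.4 kb, and a region with an AVPV peak lay 18.3 kb away.

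Among 34 genes of feeding and growth peptides and their receptors, 4 (11.8%) were nearest to arcuate-only regions, against 4.51% of all protein-coding genes. With the distance limited to 50 kb, 1 of the 34 qualified, against 2.71% of all genes. Pomc, the precursor of alpha-MSH and beta-endorphin, had a region of all 4 libraries at chr12:3941942-3942323, 12.8 kb upstream of the start. Its folds were modest, at 5.00, 6.72, 5.86 and 3.32, the last at percentile 2.54 of its list, and no response element was found. Mc4r, the melanocortin receptor on which alpha-MSH acts, had 4.84 and 5.86 in libraries 2 and 3 at a distance of 92.1 kb. Prlr, the prolactin receptor, had 5.64, 4.30 and 8.14 in libraries 1 to 3, and Sstr1, a somatostatin receptor, had 11.5, 8.07 and 9.44, at 165 and 220 kb.

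Patterning factors of the tuberal hypothalamus contributed 6 of 39 genes (15.4%), 3 of them with a region in all 4 arcuate libraries. AVPV-only regions were nearest to 1 gene (2.56%). Over all protein-coding genes, the shares were 4.51% and 1.86%. With the distance limited to 50 kb, 1 of the 39 genes qualified for arcuate-only regions, against 2.71% of all genes. The Tbx3 region, chr5:119152012-119152348, had 14.6, 9.98, 9.12 and 6.13. TBX3 is a T-box factor of arcuate neurons. The region lay 519 kb upstream of Tbx3, in the same gap between Med13l and Tbx3 as the strong Med13l region above. Isl1, a LIM-homeodomain factor of POMC neuron development, was 561 kb from a region with 10.1, 7.59, 10.9 and 4.08.

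The other patterning genes had regions in fewer libraries. Nhlh2, a helix-loop-helix factor of hypothalamic neurons, had 9.24, 10.2 and 7.94 in libraries 1, 2 and 4. Tcf7l2, an effector of Wnt signalling, had 7.44, 6.46 and 8.89 in libraries 1 to 3, and Foxp1, a forkhead factor, had 6.16 and 5.08 in libraries 1 and 3. The start sites of Nhlh2, Tcf7l2 and Foxp1 lay 31.2, 75.2 and 97.4 kb away. All but the Foxp1 region were intergenic.

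Nuclear receptors other than ERα itself contributed 7 of 48 genes (14.6%), and AVPV-only regions were nearest to 2 (4.17%). Over all protein-coding genes, the shares were 4.51% and 1.86%. Nr5a2, an orphan receptor that binds extended half-sites, had a region of all 4 libraries 10.9 kb upstream, at 7.86, 7.44, 6.39 and 4.73. Retinoid receptors made up 3 of the 7 genes. An intron of Rara held a region with 8.72, 10.8 and 6.35 in libraries 1 to 3, Rarb had 8.21 and 5.38 in libraries 1 and 2, and Rxrg had 6.16, 5.86 and 5.77 in libraries 1, 3 and 4. The Rxrg region held a perfect response element. Thrb, Rora and Nr4a1 had regions in 3, 3 and 2 libraries.

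Of 31 coregulator genes, 3 (9.68%) were nearest to arcuate-only regions and 0 to AVPV-only regions. Their median span was 80.6 kb. Of all protein-coding genes spanning 50 to 200 kb, 8.02% were nearest to an arcuate-only region and 2.54% to an AVPV-only region. The coregulator counts thus lie near the background. Ppargc1b, a coactivator, had an intronic region in all 4 libraries with 7.44, 6.46, 9.12 and 9.02. Hdac4, a histone deacetylase, had a region in libraries 1 to 3, with 6.52, 6.96 and 5.80.

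Classic estrogen targets of breast and uterus contributed 5 of 28 genes (17.9%), against 4.51% of all protein-coding genes. With the distance limited to 50 kb, 2 of the 28 qualified, against 2.71% of all genes. Greb1, a cofactor of ERα and a strong target of it, had an intronic region 10.3 kb past its start in all 4 libraries, at 9.24, 12.6, 4.76 and 6.85. Library 3 placed this peak low, at percentile 17.2. Cxcl12, a chemokine, had 8.98, 6.46 and 7.82 in libraries 1 to 3 at 165 kb, and Cited2, a transcriptional coregulator, had 7.80 and 5.54 in libraries 2 and 3, with a perfect response element. Myc was nearest to 2 regions of 2 libraries each, at 394 and 839 kb, and Rara is described above.

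Ion channels and transmitter receptors gave mixed counts. Voltage-gated calcium channel genes were nearest in 4 of 23 cases (17.4%) and AVPV-only regions had 1 (4.35%). The median span of this list was 115.9 kb. For all protein-coding genes spanning 50 to 200 kb, the shares were 8.02% and 2.54%. Cacna1c, the pore subunit of an L-type channel, had a region in all 4 libraries at 4.62, 5.92, 6.51 and 5.41, and Cacng2, the AMPA receptor partner stargazin, at 6.72, 6.76, 7.60 and 6.32. At Cacng2 the percentiles within the lists were close, from 58.0 to 66.6, whereas at Cacna1c they ran from 18.1 in library 1 to 53.6 in library 3. Cacna1h, a T-type channel, had 4.75 and 4.23 in libraries 3 and 4, and Cacng4 had a region in libraries 1 to 3.

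Potassium channels were nearest in 4 of 49 cases (8.16%), against 5 (10.2%) for AVPV-only regions. Kcng2 had an intronic region of all 4 libraries at 6.41, 4.43, 6.03 and 6.85. Glutamate receptors contributed 4 of 26 (15.4%), near the 15.3% of all genes with a span over 200 kb. The median span of that list was 298 kb. Grik3, a kainate receptor subunit, had a region at 8.23, 7.76, 6.72 and 4.50 in the 4 libraries. Grm7, Grik1 and Grin2b had regions in 2 or 3 libraries. GABA receptors contributed 1 of 17, Gabrb1, and receptors of amines and acetylcholine 3 of 34, Adra1d, Adra2c and Htr1b, against 1 and 4 for AVPV-only regions. Over all protein-coding genes, 4.51% were nearest to an arcuate-only region and 1.86% to an AVPV-only region.

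Cyclic nucleotide and calcium signalling, synaptic adhesion and axon guidance genes had the highest shares of the 14 lists. Their median gene spans were 239, 334 and 147 kb, against 17.7 kb over all genes. Long genes as a whole also had high shares, 15.3% for spans over 200 kb and 8.02% for 50 to 200 kb. With the distance limited to 50 kb, 3 of 46, 1 of 58 and 3 of 55 list genes qualified, against 2.71% of all genes. Cyclic nucleotide and calcium signalling contributed 11 of 46 genes (23.9%) and 15 regions. Pde4d, a cyclic AMP phosphodiesterase, had a region of all 4 libraries 6.06 kb upstream at 5.90, 6.46, 8.14 and 5.05. Rgs9, which speeds the shut-off of G proteins, had one with 5.64, 5.38, 5.86 and 6.13. Pde10a was nearest to 2 regions of libraries 1 to 3. Synaptic adhesion contributed 13 of 58 genes (22.4%), among them Cntnap2 and Cdh8, and axon guidance 10 of 55 (18.2%), among them Nrp2 and Plxna4. Neither list had a region in all 4 arcuate libraries.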

How the data were processed

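ERα ChIP-seq peaks of 4 arcuate and 4 AVPV libraries were analysed. Per the labels and methods, the authors aligned reads to mm10 with Bowtie2 2.5.0 and called peaks per library with MACS2 2.2.7.1. Use of the input in calling is not given in the sources used here, and input libraries were not used here. The deposited lists hold an integer score, fold enrichment (a ratio), −log10 p-value, −log10 q-value and the summit. All peaks had q-values under 5%. No read numbers or coverage were analysed, so the absence of a peak does not show the absence of binding.

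Lists were merged at 1 bp, annotated with RefSeq transcripts of GRCm38 and searched for motifs (python 3.11.15, numpy 2.4.6). The summit was that of the peak with the highest percentile. Steps were tested on simulated data. Groups came from sample titles. Regions were selected on their calls, so shares carry 95% Wilson or Newcombe intervals and no test. Members, lists and motifs were chosen with earlier results of these data known.

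Named regions followed fixed rules: the 10 regions in all 4 arcuate lists, and the 5 at promoters, with the highest lowest percentile; the 5 genes nearest to most regions; list genes; and the Kiss1, Tac2 and Pdyn loci. List genes with regions in 2 or 3 libraries, their values and Matn1 were chosen after values were seen. A few genes of the lists are not reported here.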

Additional observations from a re-analysis of the deposited data

Results flagged for a closer look

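Dixon's ratio was computed over the 4 arcuate libraries for 38 sets of values, 5 summaries of the libraries and the percentiles of the named regions with peaks in all 4. A single set passed the 95% critical value for 4 samples, where chance gives about 1 in 20. At the Nphp4 region the percentile of fold enrichment was 72.1, 69.6 and 71.8 in libraries 1 to 3 and 54.9 in library 4, a gap of 0.855 of the range.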

How the results depend on the processing

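The number of arcuate-only regions was 592 with lists of equal length, 534 for at least 3 arcuate lists and 172 for all 4. Leaving out each library gave 707 to 1274, with 710 and 707 without arcuate libraries 1 and 2. The response element share moved to 43.6% for peaks of fold enrichment above 5, 43.8% for −log10 q of at least 5, 46.8% for equal lists, 44.4% and 49.4% for at least 3 and all 4 arcuate lists, 14% for at most 1 mismatch and 32.0% within 50 bp. Leaving out each library gave 37.6% to 43.7%. The promoter share was 8.78%, 7.09%, 8.43% and 6.98% for −log10 q of at least 5, equal lists, at least 3 and all 4 lists, 16.1% with a wider promoter window, from 2 kb upstream, and 8.48% to 14.4% with each library left out, the highest without AVPV library 3. The intergenic share was 45.9% for all 4 lists. List genes nearest to a region were 5.19% within 50 kb and 8.18% by gene body, against 2.71% and 2.5% of all protein-coding genes. The cause of these shifts was not tested.

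The following alternatives were chosen after the data were seen. The response element difference from AVPV-only regions spanned 0 for all 4 lists (3.96 points) and at most 1 mismatch (1.39 points), and ranged from 2.35 to 12.3 points with each library left out. Outside promoters, the difference from regions called in both was -3.32 points for all 4 lists, with an interval spanning 0, and -14.7 to -8.62 with each library left out. The CAAGTG difference from AVPV-only regions kept its sign, with an interval above 0, under all 15 alternatives (5.66 to 13.9 points). The regions were selected on the calls of these same 8 libraries, so no test across samples, paired or not, was run on them. The sources used here do not state if arcuate and AVPV libraries came from the same animals, so pairing is unknown. Read depth is unknown, which limits what a missing peak shows.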
